A study of Mus musculus with 8 samples.

Results

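Genes that were read in the libraries labelled 2 h and nearly unread in those labelled 0 h were examined in NIH3T3, a fibroblast line that was derived from mouse embryos and grows without limit. A gene was taken when each of the 4 libraries titled 2h held at least 20 raw reads of it and the 4 titled 0h together held at most 20. Of 23304 gene symbols, 90 met this rule. Another 3 genes that met the read thresholds (Pcdh9, Epha5 and Mmp3) belong to families that were set aside by symbol. The genes were thus chosen by their raw reads in the 2 h and 0 h libraries, and the difference between those labels is described and not tested.

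The 8 libraries come from poly-clonal or clonal cells whose origin the labels do not state. The labels describe WT 0 h as unedited cells without an agent and KO 0 h as cells with Zmynd11 knocked out by CRISPR, also without an agent. They describe WT 2 h and KO 2 h as the same kinds of cell given IFNβ, a type I interferon made as a recombinant mouse protein, at 100 units/ml for 2 h. Each group has 2 libraries. All groups share the Swiss albino strain of the line and growth with donor bovine serum. The labels name neither the edited position, the number of clones nor a culture for each library, so the spread behind each p-value is that between libraries and could be technical alone. The extraction protocol speaks of embryonic fibroblasts (MEFs) where the source field has NIH3T3.

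Zmynd11, the targeted gene, did not follow the genotype labels. Its level was 122 ± 1.62 CPM under the WT 0 h label and 134 ± 4.26 in KO 0 h, against 3.40 ± 0.303 in WT 2 h and 4.001 ± 0.978 in KO 2 h (mean ± SD, n = 2 each). CPM is a gene's count as a rate of the library's total, which was first scaled by TMM, a factor that evens out differences in composition. Ifit1, an interferon-induced antiviral gene, stood at 1.30 ± 0.109 CPM in WT 0 h, 213 ± 23.3 in KO 0 h, 2.84 ± 1.57 in WT 2 h and 388 ± 11.6 in KO 2 h. The libraries labelled 2 h were thus those with low Zmynd11, and the libraries labelled KO were those with high Ifit1. Time label and Zmynd11 level move together in these 8 libraries and cannot be told apart. The levels of these 2 genes would match the labels if the names KO 0 h and WT 2 h had been exchanged, and whether they were cannot be settled here. Groups were kept as labelled. By these levels, a comparison of 2 h with 0 h labels sets low against high Zmynd11, and one of KO with WT labels sets high against low Ifit1. Every direction below is one between libraries as labelled. Gene reads summed to 13671013 to 21299120 per library. The library labelled KO 0 h replicate 2 stood apart, with reads of 17498 genes against 14847 to 15945 in the other 7.

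The labelled cell type was checked with marker lists. All 9 fibroblast markers were among the tested genes and summed to 41280 to 46075 CPM under 0 h labels and 18606 to 20544 under 2 h labels, with 7 called lower and 1 higher in WT 2 h, and 6 and 1 in KO 2 h. The part of this fall in the levels of the 90 genes was not tested. The 9 endothelial markers summed to 2.51 to 5.55 and 12.3 to 15.3 CPM, and the 12 epithelial markers to 6.79 to 8.42 and 3.72 to 4.20 CPM. For the 12 blood cell symbols, 11 of them in the tables, the sums were 34.1 to 70.8 and 40.9 to 75.6 CPM, and Cd3e, Hba-a1 and Hbb-b1 had no read. The 11 neural markers gave 3.10 to 6.48 and 4.42 to 6.37 CPM, the 9 striated muscle markers 25.7 to 35.3 and 47.8 to 53.0, and the 5 smooth muscle markers 906 to 1107 and 1545 to 1576. The 6 adipocyte, 4 liver and 6 pluripotent and germ cell markers stayed between 0.108 and 1.47 CPM in each library, and the 8 of cartilage and bone between 293 and 383. None of the 90 genes is on a marker list. In bulk RNA, fewer cells of a type and less RNA per cell cannot be told apart.

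Tissue-restricted genes are commonly held silent by closed chromatin and, at promoters with few CpG dinucleotides, by the absence of the tissue's own activators. The Zmynd11 protein binds trimethylated histone H3.3 in the bodies of transcribed genes. Type I interferon acts through its receptor, Jak kinases and the transcription factors they switch on, and raises a set of antiviral genes. Of the interferon-induced list, 54 of 56 symbols were in the tables, and none of the 54 is among the 90 genes. The rule goes far to fix this, since it left out Gbp symbols, some of which are on that list. Others had many reads in the libraries labelled KO 0 h, such as Ifit1 with 3552 and 3427. Only 90 of 23304 symbols met the rule, so absence from a list of this size says little.

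Promoters of 4 genes are shown because the pair Mgam and Clec5a lie 2 genes apart, Serpinb2 has the highest level per exon length and Fat3 has the highest mean CPM of the genes with a CpG-rich promoter. Each run is the 250 bases before the most upstream start in the RefSeq table of build GRCm38.p6, which is not the mm9 build of the counts. They lie at chr6:40628581-40628830, plus strand (Mgam), chr6:40585806-40586055, minus strand (Clec5a), chr1:107511173-107511422, plus strand (Serpinb2) and chr9:16502055-16502304, minus strand (Fat3). Capitals mark matches on either strand. The letters searched were TATAAA for the core promoter motif of that name, CCAAT for the box that NF-Y binds, TGANTCA for the site of AP-1 and CACGTG for the E-box. The fifth motif was the core of the interferon-stimulated response element.
Mgam: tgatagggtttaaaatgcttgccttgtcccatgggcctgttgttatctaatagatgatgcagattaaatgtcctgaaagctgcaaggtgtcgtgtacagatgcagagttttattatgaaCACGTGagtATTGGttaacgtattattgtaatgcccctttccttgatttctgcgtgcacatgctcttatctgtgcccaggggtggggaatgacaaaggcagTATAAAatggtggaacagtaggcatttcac
Clec5a: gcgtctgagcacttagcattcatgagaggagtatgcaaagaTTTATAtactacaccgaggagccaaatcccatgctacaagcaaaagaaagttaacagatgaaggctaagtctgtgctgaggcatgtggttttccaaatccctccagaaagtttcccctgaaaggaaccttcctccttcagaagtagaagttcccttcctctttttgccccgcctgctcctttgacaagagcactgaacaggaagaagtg
Serpinb2: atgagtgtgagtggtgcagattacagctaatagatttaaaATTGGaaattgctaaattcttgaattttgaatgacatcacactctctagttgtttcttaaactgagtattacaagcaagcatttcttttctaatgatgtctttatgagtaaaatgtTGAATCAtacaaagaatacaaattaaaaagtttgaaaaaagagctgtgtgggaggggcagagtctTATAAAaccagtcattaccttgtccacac
Fat3: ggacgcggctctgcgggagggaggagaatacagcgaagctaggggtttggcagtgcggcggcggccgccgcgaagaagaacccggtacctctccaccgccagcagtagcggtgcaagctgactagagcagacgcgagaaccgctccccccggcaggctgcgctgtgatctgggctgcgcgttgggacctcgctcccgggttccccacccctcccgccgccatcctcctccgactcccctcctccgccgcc
The run of Mgam matched the core promoter motif, the NF-Y box and the E-box. Clec5a matched the core promoter motif only, and Serpinb2 this motif, the NF-Y box and the AP-1 site. In Fat3 no such letters occur in these 250 bases. A match is a description of letters and not a measured site.

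The 90 genes held 36965 reads under 2 h labels and 848 under 0 h labels. Summed over the genes, the level was 490 to 521 CPM in the 4 libraries labelled 2 h, 10.2 and 7.81 in WT 0 h and 9.38 and 20.7 in KO 0 h. The median gene of the 90 stood at 3.08 to 3.40 CPM in each library labelled 2 h and at 0.0552 to 0.200 CPM in each labelled 0 h. In all 90 genes the lowest level under 2 h labels lay above the highest under 0 h labels, which the rule makes nearly certain. Over all 12807 genes tested with edgeR, 30.1% were called higher in WT 2 h than in WT 0 h, 30% in KO 2 h than in KO 0 h and 24.6% in both. In either direction 61.2% were called in WT and 61.1% in KO. TMM gave 3853 calls up and 3984 down in WT and 3838 and 3991 in KO. Unscaled library sizes gave 4823 and 3055 in WT and 4834 and 3036 in KO. The same change moved the median log2 fold change of all genes from 0.01 to 0.15 in WT and from -0.01 to 0.14 in KO.

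**Figure D1:**
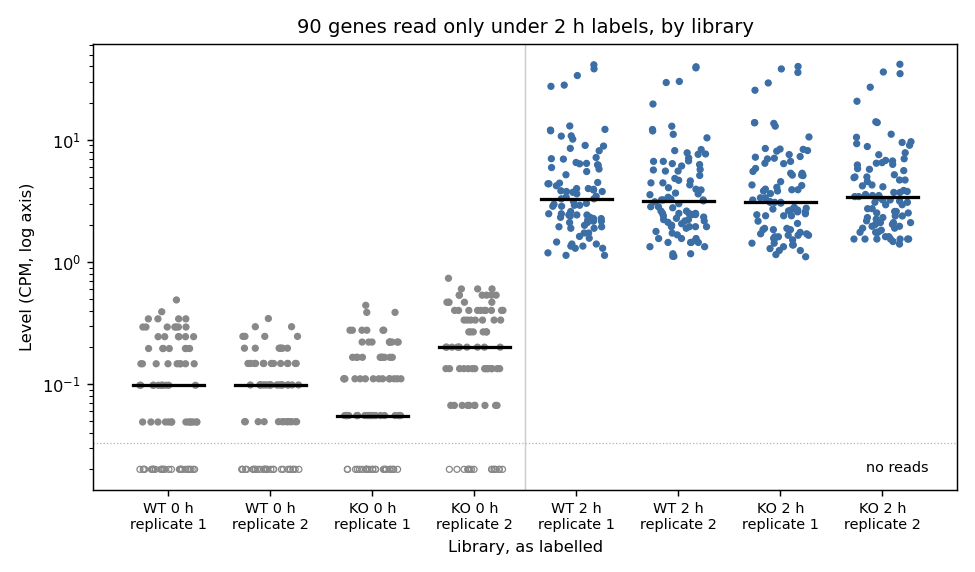
Level of each of the 90 genes in each library, in CPM on a log axis, with libraries as labelled on the x axis. Points are genes, black bars are medians, open points mark genes with no read, and the 4 libraries labelled 2 h have medians of 3.08 to 3.40 CPM against 0.0552 to 0.200 CPM in those labelled 0 h.

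Few reads decide the 0 h side of each fold. A single read was worth 0.0460 to 0.0700 CPM. Gm11351, a long non-coding RNA, Gabrg1, Pex5l and Robo2 had no read in any of the 4 libraries labelled 0 h, 25 genes had 1 to 5 reads, 22 had 6 to 10 and 39 had 11 to 20. Folds were taken from reads summed over the libraries of each time label, divided by the sum of their TMM-scaled totals. They ran from 6.17 for Oit3 (lower 95% counting bound 3.67) to 487 for Csn3 (87.0 to 19269), whose 0 h side was 1 read. These intervals cover counting error only. Gm11351 was at least 176-fold higher, counting 3 reads over the 0 h libraries. In 16 genes the fold was over 100 and in 10 it was under 10, and the median was 37.4 with the genes without 0 h reads at their bound. At the edges of the rule, 2410137F16Rik, Ctnnd2 and Robo2 had 20 reads in their lowest library labelled 2 h, and Mgam had 20 over those labelled 0 h. Just outside lay Meiob and Stxbp6 with 19 reads in the lowest 2 h library, and Abhd3 and Mrvi1 with 21 reads under 0 h labels.

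The library labelled KO 0 h replicate 2 held more of these few reads than the others. It had 310 of the 848, or 36.6%, from the smallest of the 4 libraries, against 209 and 159 in WT 0 h and 170 in KO 0 h replicate 1. In 43 of the 90 genes it alone had the most reads of the 4. Hpse2, a heparanase homolog, had 9 of its 11 reads there. Dmd had 9 of 17 and Foxp2 6 of 9. The part of this library's wider gene detection in these reads was not tested. Without it in the rule 116 genes qualified, and leaving out any other 0 h library gave 116 to 118. The thresholds were kept, so leaving a library out only loosens the rule and the 90 must stay.

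The 10 genes of enzymes and transporters include the gene with the most reads of the 90. Mgam encodes maltase-glucoamylase, which digests starch at the gut surface. It stood at 41.2 and 38.9 CPM in WT 2 h and 35.7 and 41.7 in KO 2 h, and at 0.342, 0.147, 0.166 and 0.468 CPM in the 2 WT 0 h and 2 KO 0 h libraries. The fold was 144 (counting interval 93.3 to 237). Cps1, the first enzyme of the urea cycle, stood at 10.1 and 8.17 CPM in WT 2 h and 8.09 and 7.56 in KO 2 h, with 15 reads in all under 0 h labels. Atp13a4, a P5-type ATPase, had a mean of 12.1 ± 1.36 CPM over the 4 libraries labelled 2 h (SD, n = 4), and Pde3b, a cyclic nucleotide phosphodiesterase, 8.45 ± 0.640. Atp7b, the copper transporter of liver, Slc5a4a, a relative of the sodium-glucose transporters, and Slc6a12, the betaine transporter, had 3.53, 4.11 and 2.96 CPM. Hs3st1, Hpse2 and Extl1, of heparan sulfate metabolism, had 2.99, 2.58 and 2.19 CPM.

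Muscle and actin filament genes number 6 of the 90. Dmd encodes dystrophin, which ties the actin cytoskeleton to the membrane. It stood at 38.2 and 39.7 CPM in WT 2 h, 39.9 and 34.9 in KO 2 h, and 0.293, 0.0983, 0 and 0.601 CPM under 0 h labels in the order WT then KO. The groups labelled WT and KO overlapped at 2 h. Sgcz, a sarcoglycan of the complex that binds dystrophin, had 6.06 ± 0.407 CPM (n = 4) against 2 reads in all under 0 h labels. Xirp2, an actin-binding protein of muscle junctions, and Myom2, a myomesin of the sarcomere's M-band, had 7.91 ± 1.09 and 6.42 ± 0.281 CPM, Lims2 3.05 and Txlnb 1.47. Of the 9 striated muscle markers 4 had enough reads to be tested, and 2 of these were called higher in 2 h than in 0 h under each genotype label. Over all tested genes 30.1% were called higher in WT 2 h and 30% in KO 2 h, and 4 genes are too few to compare.

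Immune and blood cell genes number 7. Serpinb2, which encodes plasminogen activator inhibitor 2, stood at 33.7 and 30.1 CPM in WT 2 h and 38.2 and 36.0 in KO 2 h, with 14 reads under 0 h labels. Per kilobase of exon it had 16.8 CPM, more than 67.8% of the 12686 tested genes with a known length. Clec5a, a lectin receptor of myeloid cells, stood at 9.01 and 7.84 CPM in WT 2 h and 7.58 and 11.1 in KO 2 h. The oxidised LDL receptor Olr1 had 4.83 CPM, the lymphocyte adaptor Samsn1 4.28, the lymphocyte receptor Gpr174 2.96 and the mast cell protease gene Mcpt8 1.62. The log2 fold changes of the 7 between KO and WT labels at 2 h lay between 0.09 and 0.31, and none passed edgeR's test.

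Genes placed by hand under nerve cell adhesion, synapses and excitability number 17 of 90, at 1.35 to 12.2 CPM. The share of such genes over all tested genes was not counted. Lingo2, a leucine-rich repeat membrane protein, stood at 10.8 and 11.1 CPM in WT 2 h and 13.0 and 13.9 in KO 2 h, where the groups did not overlap, and at 0 to 0.195 CPM under 0 h labels. Fat3, a giant cadherin, had 11.7 ± 1.85 CPM (n = 4). Rims1, a scaffold of the presynaptic active zone, had 4.04 CPM, the sodium-activated potassium channel Kcnt2 3.49, the netrin-G ligand Lrrc4c 3.02 and the axon guidance receptor Robo2 1.35. Gabrg1, a GABA receptor subunit, had 64 and 65 reads in WT 2 h and 38 and 42 in KO 2 h, with none under 0 h labels. Vmn2r3 and Vmn2r78 belong to the vomeronasal receptors, whose near-identical copies make single values uncertain.

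Of 6 genes of transcription and chromatin, Foxp2, a forkhead factor, had the highest level. It stood at 12.2 and 10.4 CPM in WT 2 h, 10.6 and 9.67 in KO 2 h, and 0.0489, 0, 0.110 and 0.401 CPM under 0 h labels. Creb5, of the CREB family, had 6.63 ± 0.144 CPM (n = 4), the smallest spread of the 90, with a coefficient of variation of 2.17%. Aff2, an X-linked nuclear protein, had 4.86 CPM against 1 read in all under 0 h labels, and Tfec, of the Mitf family, Smarca1, a chromatin remodelling ATPase, and Dach1 had 3.40, 2.81 and 1.69 CPM. Foxp2 was the only one of 55 tested genes of developmental transcription factor families among the 90. In that list 13 genes were called higher and 20 lower in WT 2 h, and 20 and 15 in KO 2 h. Over all tested genes 30.1% were called higher and 31.1% lower in WT 2 h, and 30% and 31.2% in KO 2 h.

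The 10 signalling genes ranged from 1.65 to 8.17 CPM. Plcl1, a phospholipase C-like protein, had 8.17 ± 0.240 CPM (n = 4) and 4 reads under 0 h labels. Rnf43, a ubiquitin ligase that removes Wnt receptors, stood at 6.26 and 6.28 CPM in WT 2 h and 5.15 and 3.85 in KO 2 h. The G protein subunit Gnai1 had 2.88 CPM, the kinase Tnik 2.27 and the kinase Wnk3 2.12. The 8 genes of epithelial and other junctions had lower levels, 1.46 to 4.86 CPM. Among them were Aloxe3, a lipoxygenase of the epidermal barrier, Dsp, the desmosomal protein desmoplakin, Cdh19, a cadherin, and Robo4, a receptor of endothelium. Dsp had the widest spread of the 90, at 36.8% of its mean.

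Genes of sperm and cilia were represented by Akap3, an anchoring protein of the sperm tail, with 6.75 ± 1.20 CPM (n = 4), the ciliary gene Ccdc40 with 3.41, the sperm calcium channel subunit Catsperd with 1.75 and Spef2 with 1.53. Trap1a, an X-linked gene known as a tumour rejection antigen, stood at 10.7 and 6.67 CPM in WT 2 h and 8.50 and 8.83 in KO 2 h. None of the 31 listed germline genes in the tables that DNA methylation silences in somatic cells was among the 90. So short a list says little here. Of the 10 of that list that were tested, 4 were called higher and 3 lower in WT 2 h, and 2 and 3 in KO 2 h. Shares over all tested genes were 30.1% higher and 31.1% lower in WT 2 h, and 30% and 31.2% in KO 2 h. The remaining 20 genes are of other or little-known function and include Gm17384, which RefSeq calls Dthd1 for its death domain. Gm17384 stood at 28.1 and 29.5 CPM in WT 2 h and 29.3 and 27.0 in KO 2 h against 7 reads in all under 0 h labels. Csn3, the milk protein kappa-casein, had 130 and 102 reads in WT 2 h, 157 and 89 in KO 2 h and 1 under 0 h labels. Thsd7b, a thrombospondin repeat protein, had 23.3 ± 3.74 CPM (n = 4). Placeholder names account for 10 of the 90. Of the channel, G protein-coupled receptor and solute carrier families, Kcnt2, Gpr174 and 3 carriers (Slc5a4a, Slc4a10 and Slc6a12) were among the 90, and no keratin or Zfp gene was.

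Levels were low for most of these genes under 2 h labels. Mean CPM over the 4 libraries had a median of 3.04, with 10 genes over 10 CPM and 43 under 3 CPM, and 5 genes (Mgam, Dmd, Serpinb2, Gm17384 and Thsd7b) took 32.3% of the reads. Per kilobase of exon the median of the 90 was 0.756 CPM against 8.73 over the tested genes with a known length. Only Serpinb2, Gm17384 and Gm11351 lay above the median of tested genes on that scale. The coefficient of variation over the 4 libraries had a median of 14.1%, against 10.1% for the 5985 tested genes within the same CPM range. Levels were not matched within that range, so whether the 90 vary more than genes of like level was not measured.

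The comparison of KO with WT labels at 2 h is, by its labels, one of genotype under interferon. Zmynd11 was low in both groups and Ifit1 differed, so it does not contrast Zmynd11 levels. The rule did not use the difference between these groups, but it asked for 20 reads in each of their libraries, so a gene low under 1 label could not enter. This bears most on genes with few reads, such as Robo2 and Tmem63c. None of the 90 genes was called by edgeR's quasi-likelihood test, and none had an unadjusted p below 0.05. DESeq2 also called none. Over all tested genes 1.6% were called, 1.59% higher and 0.00781% lower under the KO label, and a count of 0 in 90 is close to that background and no result about the 90. The log2 fold changes ran from -0.72 to 0.52 with a median of 0.02, against -0.01 over all tested genes. In 57 of the 90 genes the 95% interval of the change lay within 2-fold in either direction, and in 15 within 1.5-fold. Each interval and SE here is approximate, since it was worked back from the change and the test's statistic. For Mgam the change was -0.06 (SE 0.13), for Dmd -0.05 (SE 0.16) and for Gm17384 -0.03 (SE 0.13), each with adjusted p = 1.

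**Figure D2:**
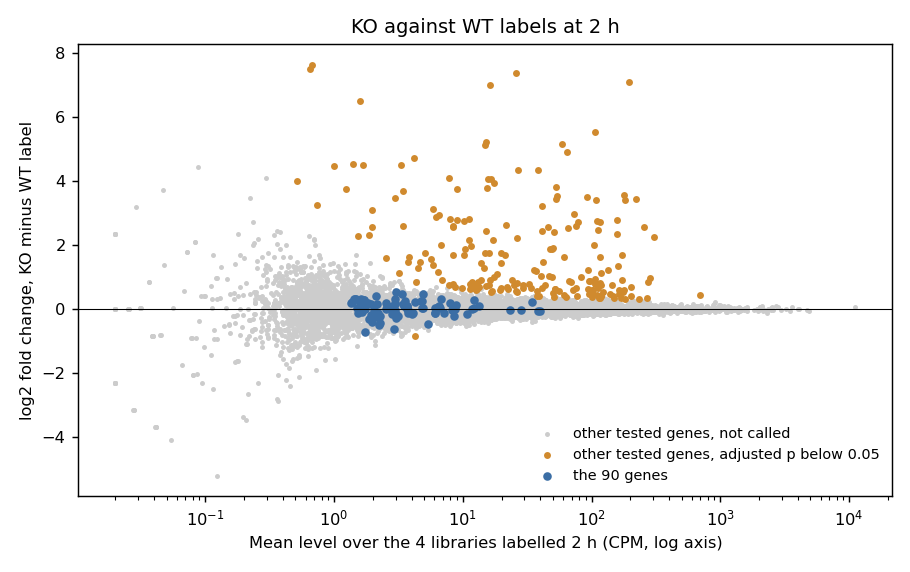
Change between KO and WT labels at 2 h (log2 fold change, y axis) against the mean CPM of the 4 libraries labelled 2 h (x axis, log axis) for all 12807 tested genes. The 90 genes (blue) lie between -0.72 and 0.52, and the called genes (orange) were 204 higher and 1 lower under the KO label.

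Serpinb2 had the smallest unadjusted p of the 90, with a change of 0.22 (SE 0.12). Its 2 libraries labelled KO 2 h, at 38.2 and 36.0 CPM, lay above both labelled WT 2 h. Rnf43 gave -0.46 (SE 0.26) and 1110059M19Rik, which RefSeq calls Prr32, 0.47 (SE 0.28). Tmem63c, with 22 to 42 reads a library, had the lowest value at -0.72 (SE 0.48), and Lrrc4c the highest at 0.52 (SE 0.37). Gabrg1 gave -0.62 (SE 0.37), and Clec5a 0.13 (SE 0.21). None of these passed edgeR's test, with adjusted p = 1 in each. Single libraries moved several of these values: Serpinb2 was 0.13 without WT 2 h replicate 2, and 1110059M19Rik 0.25 without KO 2 h replicate 1. Without KO 2 h replicate 1 Rnf43 was -0.71 and Gabrg1 -0.27, and without KO 2 h replicate 2 they were -0.29 and -1.02. In 63 genes the WT and KO libraries overlapped, in 15 both KO libraries lay above and in 12 both lay below. Over all tested genes these counts were not made, so they are no result about the 90. The same fit called 45 of 49 tested interferon-induced genes higher under the KO label at 2 h and none lower. The median log2 fold change of that list was 2.97, so differences of that size were detected in these libraries. Ifit1 of that list had 388 CPM in KO 2 h, against a median of 3.04 CPM for the 90. The calls therefore say little about small changes at the levels of the 90.

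**Figure D3:**
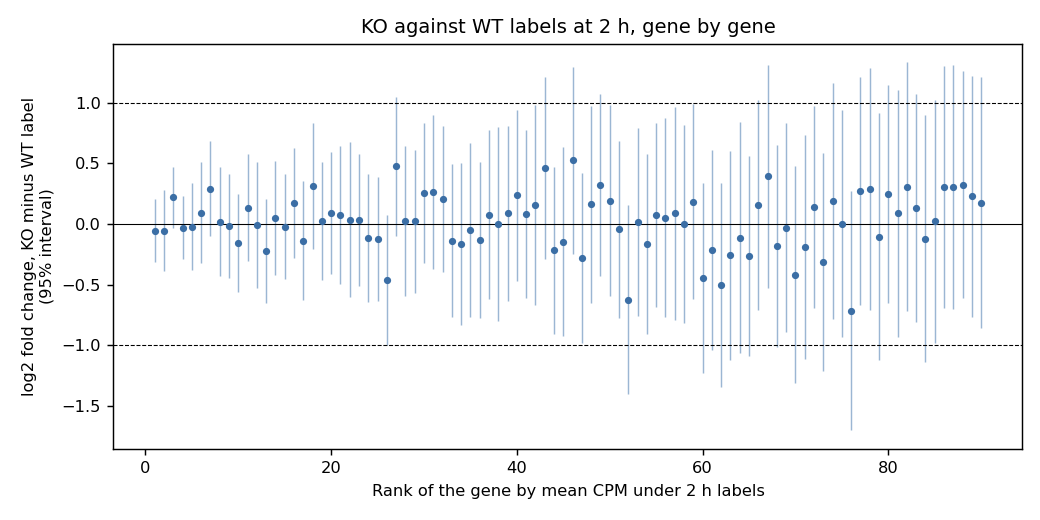
Change between KO and WT labels at 2 h with its approximate 95% interval (y axis, log2 fold change) for each of the 90 genes, ordered by mean CPM (x axis, rank). Dashed lines mark a 2-fold change; 57 intervals lie within them, and intervals widen towards the genes with fewer reads.

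Between KO and WT labels at 0 h the 90 genes are described without a test. The rule capped their reads in these 4 libraries, and the genes passed the filter on low counts only through their 2 h reads. Aloxe3 had 7 and 1 reads in the libraries labelled KO 0 h and none in WT 0 h. The median log2 fold change of the 90 was 0.65, and it was 0 without the library labelled KO 0 h replicate 2. Over all tested genes edgeR called 3.92%, with 339 (2.65%) higher and 163 (1.27%) lower under the KO label, and 275 and 221 with library size alone. The difference between the KO and WT changes at the 2 times rests on the same capped reads and is given over all tested genes only, where 0.133% were called.

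The same read thresholds were applied to the other label splits. Reversed, they found 42 genes read only under 0 h labels. By genotype label they found 6 genes read only under KO labels (Slfn8, Apol9b, Mx1, Mx2, Gm4951 and Iigp1) and none read only under WT labels. Mx1, Mx2 and Iigp1 are known interferon-induced genes and are on the interferon list.

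In position, the 90 genes lay on 20 chromosomes, 10 each on chromosomes 1 and 6, 9 on chromosome 5 and 7 on the X. Chromosomes 6 and 1 hold 4.997% and 5.70% of the tested genes that RefSeq places, and 11.1% of the 90 each. Of the 90, RefSeq gives 84 as protein coding, 5 as long non-coding RNA and 1 as a transcribed pseudogene (Gm5886). Some of the 90 genes lay close together. Mgam and Clec5a on chromosome 6 have 1 gene between them, a taste receptor, and Foxp2 and Tfec on the same chromosome are separated by Mdfic, with 3905 reads under 0 h and 11396 under 2 h labels.

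The genes adjacent to the 90 were counted too. Of 180 adjacent positions in RefSeq order, 78 (43.3%) held a tested gene. A gene between 2 of the 90, such as Mdfic, counts at both. At 37 of the 78 (47.4%) the gene was called higher in 2 h than in 0 h in both labels, and at 12 (15.4%) lower. The 78 include 2 of the 90 genes themselves. Around all tested genes 69.0% of adjacent positions held a tested gene, and the shares called were 24.3% and 25.5%. The shares thus rest on unlike denominators. Over all adjacent positions, tested or not, 37 of 180 were called higher around the 90 and 4258 of 25440 around all tested genes. At 2 genes away 33.3% were higher and 25.6% lower around the 90, and at 3 to 5 genes away 26.1% to 36.1% and 22.7% to 34.7%. Several neighbours had nearly the pattern of the 90 at lower depth. Those of them that were tested passed the filter through their 2 h reads, so they could hardly be called lower. Beside Serpinb2, Serpinb7 had 0 reads under 0 h and 69 under 2 h labels and Serpinb10 had 4 and 56. Gabra2, a GABA receptor subunit beside Gabrg1, had 4 and 83, Naa11 beside 4930467D21Rik had 2 and 139, Cnnm1 beside Hpse2 had 3 and 42, and Moxd2 beside Mgam had 0 and 20. Whether counting used strand is not stated, so reads of overlapping neighbours cannot be told apart, and no test of the neighbours' share was made.

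**Figure D4:**
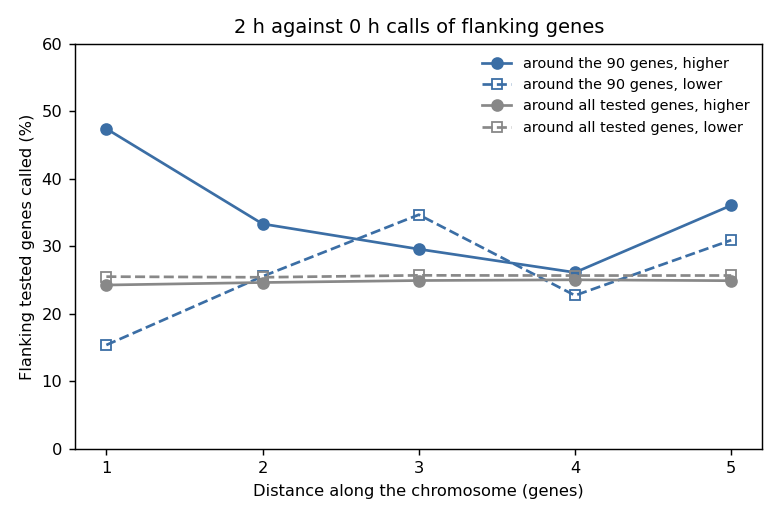
Share of tested flanking genes (y axis, %) called higher (filled) or lower (open) in 2 h than in 0 h in both labels, by distance in genes (x axis), around the 90 genes (blue) and around all tested genes (grey). The blue share of higher genes is 47.4% at distance 1, against 24.3% around all tested genes. At that distance 43.3% of positions around the 90 held a tested gene, against 69.0% around all tested genes.

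The 90 genes were long. Their median span in RefSeq was 80.3 kb against 23.0 kb over 12728 tested genes. More than 500 kb was spanned by 13 of them, or 14.4%, against 0.935% of tested genes, and over 1000 kb by Dmd, Robo2, Lrrc4c, Lingo2 and Sgcz, at 2390, 1555, 1314, 1255 and 1144 kb. At the other end, 1110059M19Rik spanned 1.89 kb and Mcpt8 3.34 kb. Levels per exon length and span are given as descriptions, with no test.

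Promoters were found in the RefSeq table for 70 of the 90 genes, in windows of 250 bases before and 50 after the start. Among those without an entry were 2410137F16Rik, Aloxe3, Cdh19, Cps1, Csn3, Foxp2, Gm5886, Insl6, Lims2, Myom2, Nov, Oit3, Pde3b, Pex5l, Plekha7, Sgcz, Tnik and Txlnb. The median ratio of observed to expected CpG dinucleotides was 0.402, against 0.765 for 10117 tested genes and 0.587 for all 17627 genes matched. A ratio of 0.6 or more, a common mark of CpG-rich promoters, was found in 26 of 70 (37.1%), against 71.6% of tested genes and 49.0% of all. For the genes whose runs are printed above, the ratios in these windows were 0.108 for Serpinb2, 0.192 for Clec5a, 0.367 for Mgam and 0.925 for Fat3. The printed runs lack the last 50 bases of each window. The core promoter motif was held by 11.4% of the 70 promoters, against 7.22% of tested genes and 13.0% of all, and an AP-1 match by 9 promoters or 12.9%, against 5.18% and 7.35%. The 9 with an AP-1 match were those of Dmd, Serpinb2, Atp13a4, Xirp2, Olr1, 1700008F21Rik, Lrrc4c, Slc6a12 and Slc4a10. The response element core was found in Extl1 alone (1.43%, against 2.95% and 3.35%), the NF-Y box in 30% (39.5% and 39.4%) and the E-box in 11.4% (10.2% and 8.19%).

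**Figure D5:**
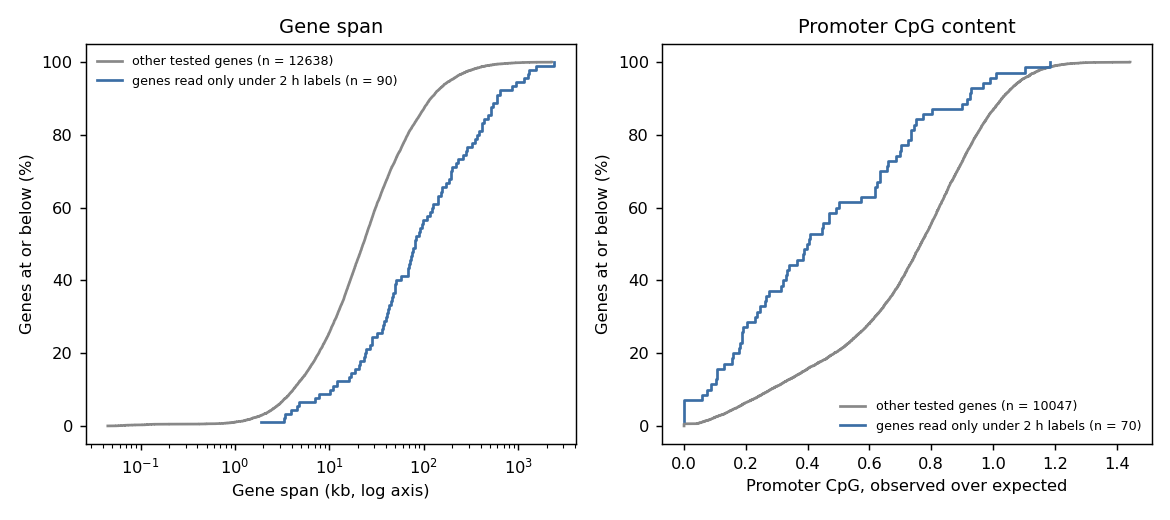
Cumulative share of genes (y axis, %) by gene span in kb (left, log axis) and by the observed over expected CpG ratio of the promoter (right). Blue marks the 90 genes on the left and the 70 of them with a promoter entry on the right. Grey marks the other tested genes with a value. The blue curve lies to the right for span, with a median of 80.3 kb, and to the left for CpG, with a median of 0.402.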

How the data were processed

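Total RNA was taken with TRIzol and sequenced from both fragment ends, per the labels' protocols. For each library the authors deposited raw counts by gene symbol. The tools named per the submitters' processing notes are STAR 2.5.2b, HTSeq and bcl2fastq 2.15, with build mm9. Which tool counted, on which annotation and with which use of strand is not stated in these sources. The 4 summary lines, 36.9 to 43.2% of reads, were left out. Counts were fitted with edgeR 4.0.16 in R 4.3.3 (filterByExpr, minimum count 10 and total 15, 12807 genes kept, TMM, robust quasi-likelihood, 1 coefficient per group, 4 residual degrees of freedom), with Benjamini-Hochberg adjustment over all genes and calls below 0.05. All 90 genes passed the filter, which their 2 h reads ensured. The model was checked on simulated data. The genes, lists and tests were chosen with earlier results of these data known. Genes named were Zmynd11, those called at 2 h, those with the most reads, list members, edge cases, genes near another of the 90, genes without 0 h reads and up to 10 others of well-known role. The further genes named in the role groups go beyond that rule and were chosen after their values were seen. RefSeq (GRCm38.p6) gave span, order and promoters, 83 of the 90 by symbol and 7 by synonym; a GENCODE annotation of the same assembly gave exon lengths. The genes were grouped by role by hand after the genes were known. Some genes of the 90 are counted but not reported here by name. Alternatives were RLE, library size alone, DESeq2 1.42.0, other filters, fits of 4 libraries, a replicate block and leaving out each library.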

Additional observations from a re-analysis of the deposited data

How the results depend on the processing

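The number of genes that meet the rule, 90, was 187 with at least 10 reads in each 2 h library and 49 with at least 40, and 51 with at most 10 reads over the 0 h libraries and 153 with at most 40. It was 91 to 118 with each library left out, which can only loosen the rule at these thresholds. At 2 h labels none of the 90 genes was called between KO and WT under the alternatives run, with 147 to 220 of all genes called when each library was left out. Small changes turned sign with a library left out: Mgam ranged from -0.18 to 0.046, Dmd from -0.17 to 0.025, Gm17384 from -0.10 to 0.013 and Clec5a from -0.16 to 0.39. At 0 h labels 502 genes were called between KO and WT, 809 without a filter on low counts (2 of the 90), 322 with the replicate block, and 174 to 1073 with each library left out (0 to 4 of the 90). Nothing is read from those counts of the 90, whose 0 h reads the rule capped. The count over all genes was 174 without WT 0 h replicate 1, 191 without WT 0 h replicate 2 and 1073 without KO 0 h replicate 1. Low counts leave the 0 h side of each fold to 20 reads at most. The replicate numbers pair no samples by label, and replicate 1 minus replicate 2 correlated at -0.07 to 0.01 between groups. With the replicate block 193 genes and none of the 90 were called at 2 h. The cause of these shifts was not tested. The fit of the 4 libraries labelled 0 h alone kept none of the 90 genes.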
